A study of Mus musculus with 4 samples.

Results

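The 7 genes of the NMDA receptor subunits, Grin1, Grin2a, Grin2b, Grin2c, Grin2d, Grin3a and Grin3b, were examined in single-nucleus ATAC-seq of mouse forebrain interneurons, out of 21938 protein-coding genes. Members were taken by gene name, and for each the transposition cut sites in peaks touching the transcribed span of the gene, or up to 2 kb in front of it, were summed and scaled to 1000000 cut sites of the library, which gives counts per 1000000 (CPM). These values measure open chromatin, not RNA. Nuclei were sorted as DAPI+/GFP+ from cortex (2 libraries) and hippocampus (2 libraries) of mice at postnatal day 30. Both regions carried the same genotype, Dlx6aCre with Sun1/sfGFP, in which Cre driven from Dlx6a regulatory DNA switches on a fluorescent nuclear envelope protein in forebrain GABAergic cells. The labels do not say whether libraries came from separate animals. Brain region p-values therefore measure only the spread between these libraries. P-values between groups of nuclei within libraries measure only how that difference varies from library to library.

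NMDA receptors are glutamate-gated cation channels that open when glutamate and a co-agonist are bound and depolarisation has relieved a magnesium block. Each receptor is a tetramer that needs the GluN1 subunit, encoded by Grin1. The GluN2 subunits (Grin2a to Grin2d) bind glutamate and set channel kinetics, and the GluN3 subunits (Grin3a, Grin3b) bind glycine and lower calcium permeability. Cortical and hippocampal interneurons of the medial ganglionic eminence (MGE) lineage express Lhx6 and include the Pvalb and Sst classes, while Adarb2 marks interneurons of the caudal ganglionic eminence (CGE) lineage.

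The 2 replicates of each brain region are called cortex 1, cortex 2, hippocampus 1 and hippocampus 2, and values are given in that order throughout. They held 2355, 4191, 5576 and 3184 nuclei. Cut sites in peaks ranged from 32005984 to 117290059 per library, and medians per nucleus were 47236 in cortex 1 against 7352 to 14917 in the others. Cortex 1 was thus the deepest and cortex 2 the shallowest library, and peaks had been called in each separately. Between 11 and 47 barcodes were shared by a pair of libraries. All 8 pan-GABA genes had cut sites in every library. Of 7 excitatory markers, Neurod6 and Neurod1 were at 0 in every library, while 5, 2, 5 and 3 of the 7 were above 0, and the summed excitatory list lay between 40 and 69 CPM against 809 to 1279 CPM for the pan-GABA list. The summed oligodendrocyte list was 276 and 210 CPM in cortex and 255 and 266 CPM in hippocampus, with Mog, Olig2 and Sox10 at 0 in cortex 2. Other summed lists were 204 to 265 CPM for microglia, 155 to 186 for astrocytes, 95.1 to 149 for striatal projection cells and 76.3 to 150 for endothelium. Sums of lists were not scaled to gene length.

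The promoters whose RefSeq sequence was at hand and which lay in a region accessible in all 4 libraries are shown first. Gene windows and distances of regions used the GENCODE gene start instead. For Grin2d that start is chr7:45878378, away from the printed bases, and 0% of its cut sites lay in peaks within 2 kb of it. Of 52 regions of these genes common to the 4 libraries, 6 held a start and 42 lay in introns. RefSeq promoters matched 4 of the 7 genes (Grin1, Grin2c, Grin2d and Grin3b), of which Grin2c had no region common to the 4 libraries. The 250 bases before each start are given 5′ to 3′ on the strand of the gene, GRCm38.p6, with matches to the motifs searched in capitals.
Grin1, chr2:25319188-25319437, minus strand: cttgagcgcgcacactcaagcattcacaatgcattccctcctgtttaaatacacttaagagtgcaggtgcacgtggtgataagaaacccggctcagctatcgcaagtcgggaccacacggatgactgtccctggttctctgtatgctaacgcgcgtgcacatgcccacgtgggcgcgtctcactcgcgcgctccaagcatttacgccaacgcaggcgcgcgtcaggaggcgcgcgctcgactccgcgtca
Grin2d, chr7:45866682-45866931, minus strand: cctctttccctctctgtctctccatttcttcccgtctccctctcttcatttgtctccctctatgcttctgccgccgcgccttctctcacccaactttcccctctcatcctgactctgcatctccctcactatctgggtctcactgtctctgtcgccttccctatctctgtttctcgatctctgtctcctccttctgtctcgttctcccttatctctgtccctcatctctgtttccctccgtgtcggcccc
Grin3b, chr10:79970474-79970723, plus strand: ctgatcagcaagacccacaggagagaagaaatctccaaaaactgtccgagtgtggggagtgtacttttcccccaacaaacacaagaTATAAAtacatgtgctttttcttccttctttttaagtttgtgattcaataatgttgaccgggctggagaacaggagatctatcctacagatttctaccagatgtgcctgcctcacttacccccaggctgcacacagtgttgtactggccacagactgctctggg

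The 6 motifs searched on both strands, over 250 bases before and 50 after the start, were Sp/KLF (GGGCGG), EGR (GCGNGGGCG), NRF1, CRE (TGACGTCA), 1 arm of the REST element RE1 (TTCAGCACC) and the TATA box (TATAAA). The Grin1 window held 1 Sp/KLF match (bases 9 to 14 after the start) and 1 overlapping EGR match (bases 5 to 13), both beyond the stretch printed. The Grin3b window held 1 TATA box match and the Grin2d window none. Of 32851 promoters, 35.7% held the Sp/KLF letters, 5.55% the EGR letters and 13.6% the TATA box letters. GC content of the printed bases was 58.8% for Grin1, 54.4% for Grin2d and 46.0% for Grin3b, with 27, 9 and 2 CpG.

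Grin2b and Grin2a encode the GluN2B and GluN2A subunits, the main GluN2 subunits of the forebrain. Grin2b had 533, 248, 525 and 303 CPM. Grin2a had 399, 289, 382 and 275 CPM. For both genes the 2 brain regions overlapped, with the higher value of each region in the library with the more extensive peaks. Grin2b peaks covered 76759 bp in cortex 1 and 10606 bp in cortex 2, and the part of covered length in these sums was not tested.

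Grin1, the obligatory subunit, had 174, 366, 227 and 221 CPM, with the cortex libraries at both extremes. Only 35.2% to 48.3% of Grin1 cut sites lay in peaks that overlapped no other gene, so its sums include neighbouring genes. Grin2d, the subunit best known from interneurons, had 103, 99.0, 101 and 122 CPM. Only 2.95% to 24.7% of its cut sites lay in peaks not shared with another gene, and its annotated window reaches past the neighbouring Kdelr1 start.

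Grin3a, the GluN3A subunit, had 71.7 and 53.5 CPM in cortex and 98.3 and 94.5 CPM in hippocampus. Both hippocampus libraries were above both cortex libraries. Between the brain regions the 7 oligodendrocyte markers had a median log2 fold change of 1.64, with 1 called higher in hippocampus by edgeR, and their part in the Grin3a values was not tested. Sox10 was at 0 in both cortex libraries, and the fitted values of such genes depend on the prior count. Grin3b had 14.1, 43.0, 34.8 and 22.6 CPM, and its window overlaps neighbouring genes, with 29.9% to 72.9% of cut sites unshared. Grin2c, best known from cerebellar granule cells, had 12.5, 3.16, 8.87 and 3.88 CPM. Grin2c, Grin2a, Grin2b and Grin3a lay wholly in unshared peaks.

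Between genes, the order of levels depended on the length used, here first per kb of gene window. Grin1 had 5.81 to 12.2 CPM per kb and Grin2d 2.04 to 2.51, and both held peaks shared with neighbours. Grin2a had 0.640 to 0.928 CPM per kb and Grin2b 0.537 to 1.15, ranges that overlap. Grin3a had 0.288 to 0.528 CPM per kb, below every Grin2a and Grin2b value, and overlapping Grin2c at 0.157 to 0.621. Grin3b had 1.67 to 5.08 CPM per kb. Per kb covered by peaks the order changed. Grin3a then had 8.33, 22.6, 8.74 and 14.7 CPM per covered kb, against 7.98, 25.1, 8.07 and 12.2 for Grin2a and 6.94, 23.4, 7.14 and 11.5 for Grin2b. Grin3a was thus above both in every library but cortex 2. Grin1 had 9.82, 24.8, 9.40 and 14.5 CPM per covered kb, below the Grin2d values of cortex 1 (11.4) and hippocampus 2 (16.2).

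**Figure D1:**
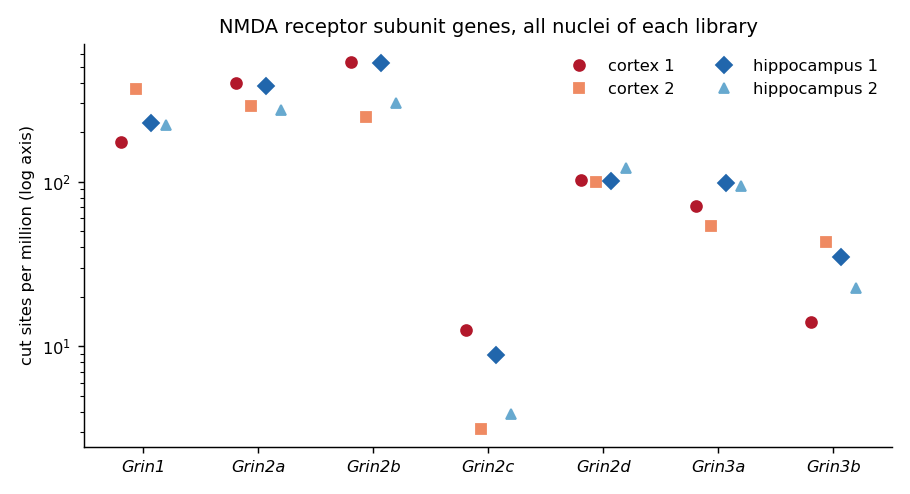
CPM (log axis) of the 7 subunit genes over all nuclei, 1 point per library. Grin3a is the gene whose hippocampus points (98.3 and 94.5) both lie above its cortex points (71.7 and 53.5), and the cortex points of Grin1, Grin2b and Grin3b lie far apart.

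To ask whether the subunit genes differ between brain regions, all nuclei of each library were summed and compared with edgeR's quasi-likelihood test. None of the 7 genes passed the threshold, against 20 of 16326 genes tested (0.123%), and 501 genes had an unadjusted p under 0.05. DESeq2 called 153 genes and no subunit gene. Grin3a had the largest difference among the well-covered members (log2 fold change, hippocampus over cortex, 0.62 ± 0.33 SE, edgeR unadjusted p = 0.0619 and adjusted p = 1.00). Non-overlapping libraries were seen in 21.8% of all genes, and in 10.7% with hippocampus higher as for Grin3a. With the covered length as an offset the Grin3a difference was -0.40. In that fit the median over all genes was itself -0.55, and 0 genes had an unadjusted edgeR p under 0.05. The same gene within Lhx6-gated nuclei (defined below) gave 0.66 ± 0.32 and within Adarb2-gated nuclei 0.52 ± 0.34, neither past the threshold after adjustment by edgeR, with 0.0678% and 0.129% of genes called in these comparisons. The median log2 fold change was 0.0099 over the 7 members, -0.067 over 24 partners and -0.096 over all genes. No partner gene (scaffolds, kinases, co-agonist enzymes and transporters that act with the receptor) passed.

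Within 250 accessible regions of the 7 genes, 52 were common to all 4 libraries, and none of these differed between brain regions, against 0.589% of 46698 common regions. The smallest p belonged to an intronic Grin3a region, chr4:49784628-49785575. Its level was 5.09 and 4.62 CPM in cortex and 12.8 and 12.6 CPM in hippocampus. These did not overlap, but how many of all common regions do the same was not counted. The log2 fold change was 1.38 ± 0.35, with an edgeR adjusted p of 0.0700. The Grin3a start region, chr4:49843672-49846257, had 34.0 and 27.0 CPM in cortex and 27.9 and 45.9 CPM in hippocampus, which overlap.

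Nuclei were then grouped by the cut sites in 4 marker genes. A nucleus was high for a marker with at least 2 cut sites in it and a rate above the library's pooled rate, and low with a rate under 0.5 of that pooled rate. Lhx6-gated nuclei were Lhx6-high and not Adarb2-high, and Adarb2-gated nuclei the reverse. Lhx6-gated nuclei numbered 689, 516, 1375 and 753 and Adarb2-gated nuclei 635, 310, 1343 and 723. Of 7 CGE markers tested apart from Adarb2, 6 were lower in Lhx6-gated nuclei. Of 4 MGE markers tested apart from Lhx6, Pvalb and Sst, 3 were higher. Of 8 pan-GABA markers 1 was lower, and of 4 microglia markers tested 2 were higher. The gates also differed in depth, with a median of 50328 cut sites per Lhx6-gated nucleus of cortex 1 against 45340 per Adarb2-gated nucleus, and values after thinning each nucleus to 5000 cut sites are given beside the gene calls of members below. Region tests were not run on thinned nuclei, and no thinned value is given for partner genes.

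Between the lineage gates no subunit gene passed, with 7.99% of 16964 genes called. Grin3a was higher in the Lhx6-gated sum of all 4 libraries (73.6 against 70.1, 56.2 against 54.7, 106 against 87.9 and 99.5 against 92.1 CPM), with a log2 fold change of 0.14 ± 0.054 and an edgeR adjusted p of 0.142. Such agreement of direction over the 4 libraries was seen in 24.8% of all genes. Grin2b was 0.062 ± 0.037, also higher in all 4 libraries, and Grin2a -0.016 ± 0.039. The test of the gate difference between brain regions called no member, with 0.884% of all genes called. Of 24 partners, 4 were higher and 2 lower in Lhx6-gated nuclei. Actn2 (alpha-actinin, which binds the receptor) rose by 0.28 ± 0.07, Neto1 (an auxiliary subunit) by 0.16 ± 0.05 and Dlgap1 (a scaffold) by 0.15 ± 0.03. Slc1a2, the glutamate transporter GLT-1, was -0.48 ± 0.06 and Camk2a, a kinase bound to the receptor, -0.19 ± 0.04, both lower in all 4 libraries.

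Although no gene sum passed between lineage gates, single regions inside 2 of the genes did. Of 52 member regions 9 passed, 5 higher and 4 lower in Lhx6-gated nuclei, against 18.7% of all common regions (11% higher and 7.69% lower). All 9 lay in introns of Grin2a (1 higher, 3 lower) and Grin2b (4 higher, 1 lower), genes that held 18 and 22 of the 52 regions, 17 and 21 of them intronic. None of the 6 start regions passed, and the share of start regions of all genes that pass was not counted. The region of smallest p in each direction is shown because these carry the largest lineage difference, as the middle 200 bases on the plus strand of GRCm38, with no part capitalised.
Grin2b intron, chr6:136072577-136072776: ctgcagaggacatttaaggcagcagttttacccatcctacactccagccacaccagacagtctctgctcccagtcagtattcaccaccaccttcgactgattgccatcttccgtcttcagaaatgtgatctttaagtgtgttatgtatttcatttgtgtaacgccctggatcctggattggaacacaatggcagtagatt
Grin2a intron, chr16:9753027-9753226: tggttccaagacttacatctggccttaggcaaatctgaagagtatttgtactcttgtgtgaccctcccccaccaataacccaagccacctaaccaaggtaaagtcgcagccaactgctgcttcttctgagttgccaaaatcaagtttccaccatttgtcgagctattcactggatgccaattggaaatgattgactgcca

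The Grin2b region (chr6:136072222-136073132) lay 101 kb into the gene. Its level in Lhx6-gated nuclei was 17.3, 19.9, 16.6 and 12.7 CPM and in Adarb2-gated nuclei 7.50, 13.5, 7.84 and 5.51 CPM, in library order. It was higher in Lhx6-gated nuclei within every library. The log2 fold change was 1.05 ± 0.15 with an edgeR adjusted p of 0.000213. The Grin2a region (chr16:9752601-9753654), 242 kb into the gene, had 4.00, 3.63, 5.46 and 5.50 CPM in Lhx6-gated and 10.6, 13.5, 10.1 and 7.04 CPM in Adarb2-gated nuclei. The log2 fold change was -1.07 ± 0.21 with an edgeR adjusted p of 0.00270. Both calls held with each library left out. Both regions were picked by their p in this same comparison. How many of all common regions keep 1 direction in every library was not counted.

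The other Grin2b regions that were higher in Lhx6-gated nuclei lay at chr6:135951612-135952312 (0.81 ± 0.24), chr6:135956216-135956896 (0.76 ± 0.18) and chr6:135975827-135977061 (0.59 ± 0.13). The region at chr6:136149925-136151067 was lower (-0.66 ± 0.18). In Grin2a, chr16:9651948-9653141 was higher (0.55 ± 0.11), and chr16:9677754-9679201 (-0.58 ± 0.15) and chr16:9738011-9739275 (-0.50 ± 0.16) were lower.

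**Figure D2:**
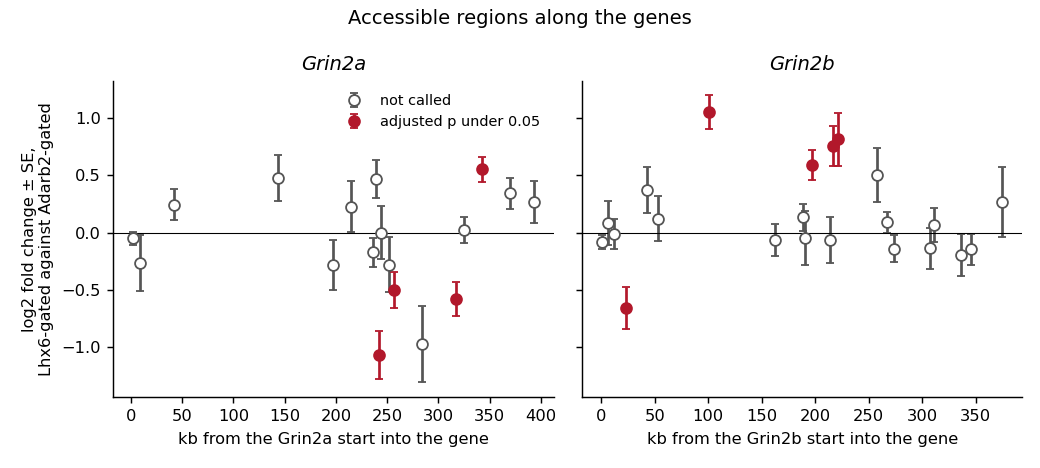
Log2 fold change ± SE between Lhx6-gated and Adarb2-gated nuclei for each common region of Grin2a and Grin2b, against the distance in kb from the gene start. Filled points passed an edgeR adjusted p of 0.05 and lie in introns, up to 1.05 in Grin2b and down to -1.07 in Grin2a. The start regions at the left lie near 0, and start regions of all genes were not counted.

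Within Lhx6-gated nuclei, Pvalb-gated nuclei (Pvalb-high, not Sst-high) were compared with Sst-gated nuclei (the reverse). Pvalb-gated nuclei numbered 237, 61, 231 and 118 and Sst-gated nuclei 209, 38, 89 and 52. Grin3a was the only member that passed, against 2.02% of 15697 genes, 0.822% being lower in Pvalb-gated nuclei. Its level was 47.8, 51.7, 93.9 and 83.7 CPM in Pvalb-gated and 102, 59.6, 144 and 117 CPM in Sst-gated nuclei. In cortex 2 these rest on 34 and 26 cut sites. It was lower in Pvalb-gated nuclei in every library, as it was in one direction or the other for 18.6% of all genes. The log2 fold change was -0.72 ± 0.13, with an edgeR adjusted p of 0.00265. Cortex 1 carried the largest difference, and without it the value was -0.50 with an adjusted p of 0.348. With at least 4 marker cut sites for a gate it was -0.41 (adjusted p = 1.00), with 2 or 3 nuclei left in cortex 2. Without the library as a block it was -0.63 (adjusted p = 1.00). After thinning, Grin3a did not pass the low-count filter. In cortex alone it was -0.87 and in hippocampus alone -0.56, both past the threshold.

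The Grin3a start region, which is part of the gene sum and so no separate evidence, was then read alone. Its level was 21.7, 9.12, 26.8 and 44.8 CPM in Pvalb-gated and 49.1, 29.8, 41.1 and 64.0 CPM in Sst-gated nuclei, lower in every library. The share of all common regions with 1 direction in every library was not counted. The cortex 2 values rest on 6 and 13 cut sites. The whole gene had 51.7 and 59.6 CPM in cortex 2, a smaller gap, so the rest of the gene went the other way there. The log2 fold change was -0.88 ± 0.19, with an edgeR adjusted p of 0.00420 and 0.363 without cortex 1. The Grin2b region named above also passed at -1.42 ± 0.31 (edgeR adjusted p = 0.00525, and 0.435 without cortex 1). It had 6.65, 13.7, 12.04 and 8.11 CPM in Pvalb-gated and 29.3, 22.9, 26.1 and 16.0 CPM in Sst-gated nuclei. These were 2 of 50 member regions tested, against 4.88% of all common regions and 2.39% lower in Pvalb-gated nuclei.

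**Figure D3:**
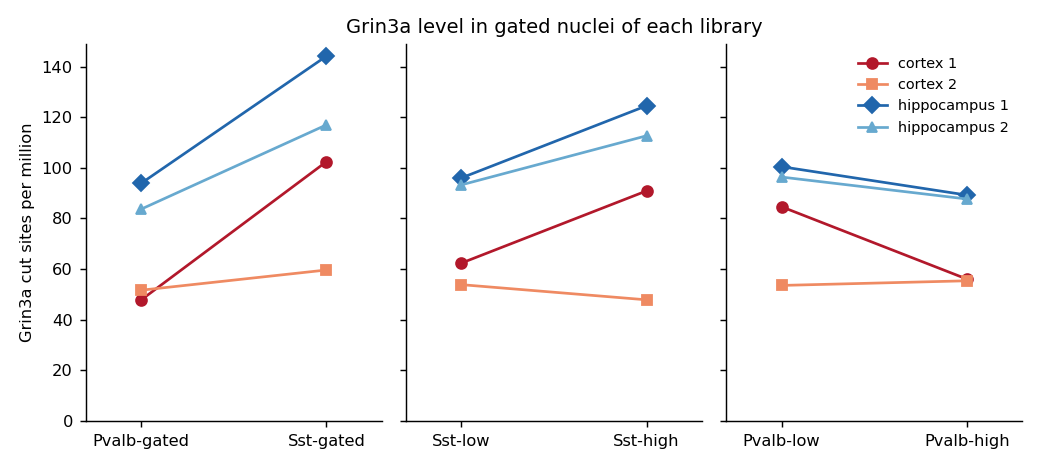
Grin3a CPM in pairs of nuclei gates, 1 line per library. The line rises from Pvalb-gated to Sst-gated nuclei in all 4 libraries, most steeply in cortex 1 (47.8 to 102), and from Sst-low to Sst-high nuclei in 3 of 4.

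**Figure D4:**
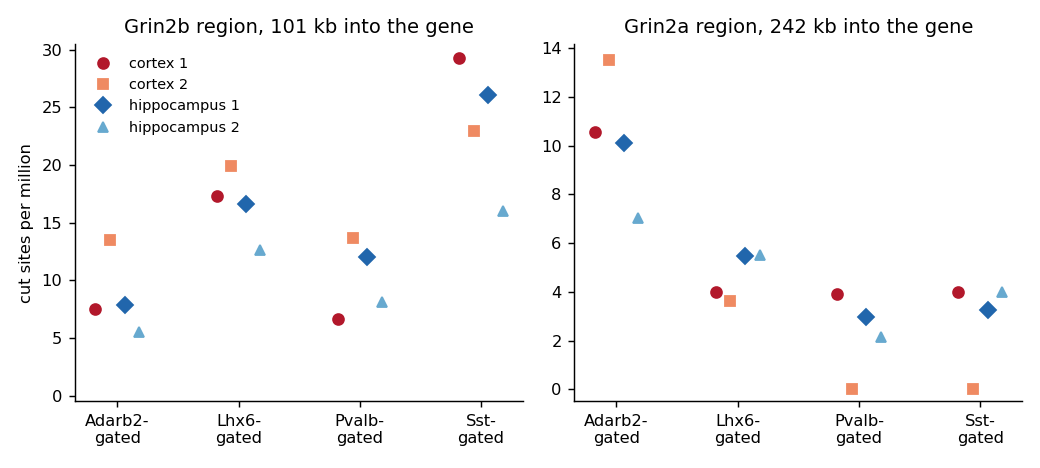
CPM, 1 point per library, at the Grin2b region 101 kb and the Grin2a region 242 kb into each gene, over 4 gates of nuclei. The Grin2b region had 16.0 to 29.3 CPM in Sst-gated and 6.65 to 13.7 CPM in Pvalb-gated nuclei, a separation not counted over all common regions.

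Over all nuclei, Sst-high against Sst-low nuclei gave the same gene. Sst-high nuclei were 28.4%, 4.77%, 5.36% and 4.37% of nuclei, and Sst-low nuclei 69.2%, 93.2%, 93.1% and 94.4%. The gate thus took in a larger share of cortex 1, the deepest library, and the part of this in the result was not tested. Grin3a had 90.9, 47.9, 125 and 113 CPM in Sst-high and 62.4, 53.9, 96.0 and 93.3 CPM in Sst-low nuclei, higher in 3 of 4 libraries and lower in cortex 2. The log2 fold change was 0.34 ± 0.07 (edgeR adjusted p = 0.00402, and 0.133 without cortex 1), with 7.08% of all genes called and 3.4% higher. Of 7 oligodendrocyte markers 4 were lower in Sst-high nuclei, with summed levels of 187 to 269 CPM against 211 to 279 CPM in Sst-low nuclei. Of 8 pan-GABA markers 2 were lower, and of 7 CGE markers 2 were lower (median log2 fold change -0.61). The part of these markers in the result was not tested. With nuclei kept for pan-GABA accessibility alone the value was 0.35 (adjusted p = 0.00186). The call was also lost with gates of at least 4 cut sites (0.37, adjusted p = 0.418), after thinning (0.43, adjusted p = 0.695) and without the library block (0.31, adjusted p = 1.00). In Pvalb-high against Pvalb-low nuclei Grin3a was -0.26 ± 0.08 (adjusted p = 0.0602), with 11.3% of genes called. Gates share nuclei and markers, so these comparisons are not independent of each other.

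Lhx6-high against Lhx6-low nuclei gave 1 call, Grin2b, at 0.13 ± 0.03 (edgeR adjusted p = 0.0233), with 9.62% of genes called and 4.38% higher. Grin2b was higher in Lhx6-high nuclei of all 4 libraries, and 27.7% of all genes had 1 direction in all 4. Adarb2-high against Adarb2-low nuclei gave 1 call, Grin2a, at 0.14 ± 0.04 (adjusted p = 0.0245), higher in 3 of 4 libraries, with 5.47% of genes called and 2.55% higher. Among nuclei kept for pan-GABA accessibility the values were 0.068 for Grin2b (adjusted p = 0.294) and 0.071 for Grin2a (adjusted p = 0.349), and neither passed. After thinning they were 0.10 (adjusted p = 0.420) and 0.17 (adjusted p = 0.204), and without the library block 0.12 and 0.13 (adjusted p = 1.00 for both). The Grin2b call was lost without cortex 2 (adjusted p = 0.0719), without hippocampus 1 (0.0655) and without hippocampus 2 (0.131). The Grin2a call was lost without cortex 1 (adjusted p = 0.0618), without hippocampus 1 (0.239) and without hippocampus 2 (0.185). High nuclei were deeper than low nuclei, with medians of 50288 against 39408 cut sites for Lhx6 in cortex 1. Lhx6-high nuclei were 41.5%, 13.6%, 36.0% and 34.7% of nuclei, and Adarb2-high nuclei 39.2%, 8.69%, 35.4% and 33.7%.

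**Figure D5:**
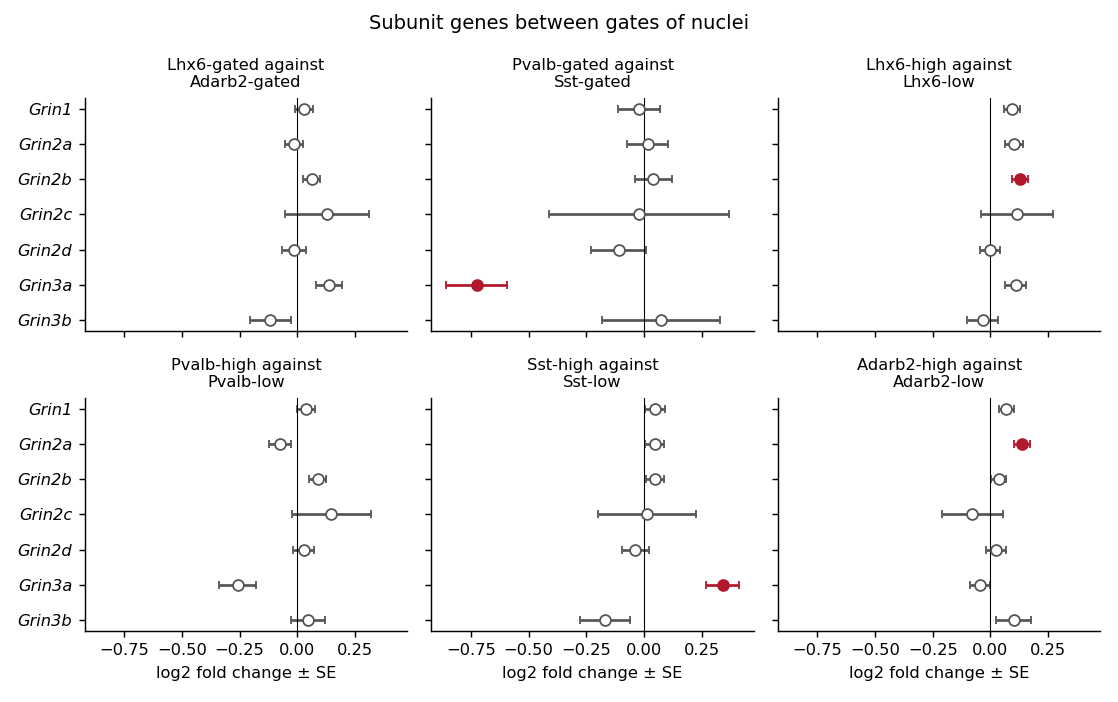
Log2 fold change ± SE of the 7 genes in 6 comparisons between gates of nuclei, with filled points past an edgeR adjusted p of 0.05. Filled points are Grin3a in Pvalb-gated against Sst-gated (-0.72) and Sst-high against Sst-low nuclei (0.34), Grin2b for Lhx6 (0.13) and Grin2a for Adarb2 (0.14).

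Region by region, the Grin2b region at chr6:136072222-136073132 passed in all 4 marker comparisons. These share nuclei with the lineage comparison from which the region was picked, so they are no separate evidence. The Grin2b region was higher in Sst-high (1.07 ± 0.15) and Lhx6-high nuclei (0.81 ± 0.16) and lower in Pvalb-high (-0.51 ± 0.14) and Adarb2-high nuclei (-0.54 ± 0.11). The Grin2a region at chr16:9752601-9753654 was lower in Pvalb-high (-0.77 ± 0.17) and higher in Adarb2-high nuclei (0.82 ± 0.14). Of 52 member regions, 7 passed for Lhx6, all higher, against 14.4% of all common regions (9% higher). For Pvalb 13 passed, 5 higher and 8 lower, against 21.4% (11.2% and 10.1%). For Sst 12 passed, 6 higher and 6 lower, against 19% (9.2% and 9.78%). For Adarb2 7 passed, 6 higher and 1 lower, against 11.5% (6.02% higher and 5.49% lower).

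Partners were called in 5 of the 6 gate comparisons, and the share of all genes called in either direction is given with each below. For Lhx6 (9.62% of genes), 4 of 24 rose, led by Actn2 (0.32), Neto1 (0.18) and Dlg2 (0.14, the scaffold PSD-93), and Slc1a2 fell by 0.31. For Pvalb (11.3%), Actn2 (0.25), Dlgap1 (0.15) and Dlg2 (0.12) rose, and Nos1 (-0.22), Slc1a2 (-0.21) and Ephb2 (-0.19) fell. For Sst (7.08%) 1 partner, Neto1, rose by 0.30. For Adarb2 (5.47%), Slc1a2 (0.32), Camk2a (0.15) and Shank2 (0.14) rose. No partner passed between Pvalb-gated and Sst-gated nuclei, with 2.02% of genes called. How these partner calls fared under the other settings is not given.

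The genes whose lineage-gate pattern was most like Grin3a, by Pearson correlation of log2(CPM + 1) centred within library over 8 sums, were Gpc6 (0.996) and Abcb4 (0.995). Centring leaves 4 free values, and the best of 12085 genes was taken for each member, so these values are a description only. The nearest genes were Nhsl2 for Grin1, Gosr2 and Col13a1 for Grin2a, Col6a4 and Lmo3 for Grin2b, Dnajc24 and Spink10 for Grin2d, and Slc10a7 and Arl3 for Grin3b, all between 0.991 and 0.998.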

How the data were processed

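Per the labels, GFP-positive nuclei were profiled with the 10x Genomics single-nucleus ATAC assay, and the submitters' processing notes name Cell Ranger ATAC 1.2.0 and the builds GRCm38 and mm10. The values used are the deposited raw counts of cut sites per peak and barcode, called by the authors in each library separately and not normalized. Deposited motif counts were not used. No further per-sample columns were present.

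Counts were summed over nuclei per library or gate and over GENCODE M21 gene windows, since nuclei are not replicates. Regions were merged peaks overlapping by at least 1 bp (185260), of which 46698 held a peak of every library. Sums were tested with edgeR 4.0.16 (glmQLFTest, a quasi-likelihood test, two-sided and with the robust option, filterByExpr, library totals, Benjamini-Hochberg over all features, threshold 0.05) in R 4.3.3, with library as a block between gates and no block between brain regions. All 7 members passed the filter in each comparison. DESeq2 1.42.0, TMM factors, no filter, each library left out, gates of at least 4 cut sites, thinning to 5000 cut sites and other peak sets were alternatives, and scripts were tested on simulated data. Differences between cortex 1 and cortex 2 correlated at 0.069 with those between hippocampus 1 and hippocampus 2, across 16326 genes. Same-numbered libraries were not treated as pairs. Region tests in the Pvalb-, Sst-, Lhx6- and Adarb2-based comparisons and the pan-GABA restriction (rate at least 0.5 of the pooled rate) were added after seeing the data. The members, gates and gene lists were chosen with earlier results of these data known. Named genes were the 7 members, 24 partners (the 3 largest called changes in each direction), the 2 most similar genes per member with a mean of at least 20 CPM, and per member its start region and the region of smallest p. Some named items are withheld and not reported here.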

Additional observations from a re-analysis of the deposited data

Results flagged for a closer look

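In the following results the effect went one way in both cortex libraries and the other way in both hippocampus libraries. How many of all genes do the same was not counted, so the list is a description only. The difference was not tested in any of those listed first, and values are the mean log2 ratio in hippocampus minus that in cortex. For Pvalb-gated against Sst-gated nuclei the difference for Grin3b was 1.33. For Lhx6-high against Lhx6-low nuclei it was 0.13 for Grin3b. For Pvalb-high against Pvalb-low nuclei it was -0.27 for Grin2a. For Sst-high against Sst-low nuclei it was 0.19 for Grin2d. For Adarb2-high against Adarb2-low nuclei it was 0.12 for Grin2b, 0.19 for Grin2d and -0.11 for Grin3a. Each group held 2 libraries, and members with few cut sites such as Grin3b have wide counting error. Between the lineage gates, where the difference was tested, Grin2d also went opposite ways (log2 ratios of 0.084 and 0.15 in cortex and -0.16 and -0.074 in hippocampus), with an interaction of -0.22 ± 0.097 SE and an edgeR adjusted p of 0.470, not past the threshold.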

How the results depend on the processing

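Differences are first group over second as named, brackets name the comparison (a brain region difference is hippocampus over cortex), and the causes of these changes were not tested. The Grin3a difference between Pvalb-gated and Sst-gated nuclei kept its direction in every alternative and lost its call without cortex 1, with gates of at least 4 cut sites and without the block. Its range was -0.87 to -0.41, and after thinning to 5000 cut sites Grin3a did not pass the low-count filter there and has no value. The Grin2b and Grin2a intronic regions kept their lineage calls under TMM, DESeq2, no filter and each library left out. The replicate number as a block between brain regions called no member, and the same-numbered libraries shared only a number. Brain region tests rest on 2 libraries each, cortex 2 is shallow, and small gates in it hold few cut sites, so members with few cut sites (Grin2c, Grin3b) are known only coarsely. None of the members whose sign changed passed the threshold in either fit. Counts of called features were 20 (brain region, all nuclei), 11 (brain region, Lhx6-gated), 21 (brain region, Adarb2-gated), 1356 (lineage gates), 317 (Pvalb- against Sst-gated), 1638 (Lhx6 high against low), 1932 (Pvalb high against low), 1205 (Sst high against low), 933 (Adarb2 high against low), 150 (interaction), 8719 (regions by lineage gate), 275 (regions by brain region), 2152 (regions, Pvalb- against Sst-gated), 8862 (regions, Sst high against low), 6734 (regions, Lhx6 high against low), 9978 (regions, Pvalb high against low), 5373 (regions, Adarb2 high against low). Counts that moved by over 1.5 times were as follows. With TMM factors, 1 (brain region, all nuclei), 1 (brain region, Lhx6-gated), 1 (brain region, Adarb2-gated), 0 (regions by brain region). With DESeq2, 153 (brain region, all nuclei), 131 (brain region, Lhx6-gated), 60 (brain region, Adarb2-gated), 125 (Pvalb- against Sst-gated), 534 (Adarb2 high against low), 27 (interaction), 1040 (regions, Pvalb- against Sst-gated). With the replicate number as a block, 0 (brain region, all nuclei), 0 (brain region, Lhx6-gated), 1 (brain region, Adarb2-gated), 0 (regions by brain region). With common regions alone, 2 (brain region, all nuclei), 4 (brain region, Lhx6-gated), 3 (brain region, Adarb2-gated). With the covered length as offset, 0 (brain region, all nuclei), 0 (regions by brain region). Counted within 2 kb of the gene start, 6 (brain region, all nuclei), 575 (lineage gates). Without peaks shared with another gene, 3 (brain region, all nuclei). With no filter on low counts, 37 (brain region, Lhx6-gated). With a gate of at least 4 marker cut sites, 619 (lineage gates), 2 (Pvalb- against Sst-gated), 960 (Pvalb high against low), 100 (Sst high against low), 477 (Adarb2 high against low). With nuclei thinned to 5000 cut sites, 106 (lineage gates), 2 (Pvalb- against Sst-gated), 209 (Lhx6 high against low), 98 (Pvalb high against low), 11 (Sst high against low), 73 (Adarb2 high against low). With no replicate block (library not in the fit), 0 (lineage gates), 1 (Pvalb- against Sst-gated), 0 (Lhx6 high against low), 0 (Pvalb high against low), 1 (Sst high against low), 0 (Adarb2 high against low). In cortex libraries alone, 147 (Pvalb- against Sst-gated). In hippocampus libraries alone, 89 (Pvalb- against Sst-gated). Among nuclei with pan-GABA accessibility, 760 (Lhx6 high against low). With regions at least 50% covered in each library, 34 (regions by brain region). With each library left out in turn, the counts ranged over 6 to 725 (brain region, all nuclei), 6 to 597 (brain region, Lhx6-gated), 4 to 497 (brain region, Adarb2-gated), 734 to 1255 (lineage gates), 7 to 356 (Pvalb- against Sst-gated), 890 to 1494 (Lhx6 high against low), 1059 to 1539 (Pvalb high against low), 518 to 1013 (Sst high against low), 314 to 985 (Adarb2 high against low), 17 to 358 (interaction), 5713 to 6985 (regions by lineage gate), 35 to 4741 (regions by brain region), 25 to 2645 (regions, Pvalb- against Sst-gated), 4763 to 8068 (regions, Sst high against low). Log2 fold changes of members that changed sign were these. Without peaks shared with another gene, Grin1 0.0053 and Grin2d -1.07 (brain region, all nuclei). With TMM factors, Grin2a 0.017 (brain region, all nuclei), Grin2a 0.018 and Grin3b 0.14 (brain region, Lhx6-gated), Grin2a 0.068 (brain region, Adarb2-gated), Grin2d 0.017 (Lhx6 high against low). With DESeq2, Grin2a 0.035 (brain region, all nuclei), Grin2a 0.038 and Grin3b 0.14 (brain region, Lhx6-gated), Grin2a 0.083 and Grin2c 0.016 (brain region, Adarb2-gated), Grin2c 0.25 (Pvalb- against Sst-gated), Grin2d 0.018 (Lhx6 high against low), Grin2c -0.0090 (Sst high against low). With the covered length as offset, where the median over all genes moved to -0.55, Grin2b -0.70, Grin2d -0.49, Grin3a -0.40, Grin3b -0.91 (brain region, all nuclei). Counted within 2 kb of the gene start, Grin2b -0.17 (brain region, all nuclei), Grin2b -0.083 (lineage gates). With common regions alone, Grin2b -0.0041 and Grin3b 0.21 (brain region, Lhx6-gated), Grin1 0.014 and Grin2a 0.053 (brain region, Adarb2-gated). With the replicate number as a block, Grin3b 0.19 (brain region, Lhx6-gated), Grin2c 0.50 (brain region, Adarb2-gated). With a gate of at least 4 marker cut sites, Grin1 -0.0032 and Grin2c -0.023 (lineage gates), Grin2b -0.048 and Grin2d 0.041 (Pvalb- against Sst-gated), Grin2d 0.022 (Lhx6 high against low), Grin3b -0.048 (Pvalb high against low), Grin2d 0.036 (Sst high against low). With nuclei thinned to 5000 cut sites, Grin1 -0.0081, Grin2a 0.0071, Grin2c -0.48, Grin2d 0.070 (lineage gates), Grin2a -0.057 (Pvalb- against Sst-gated), Grin2c -0.63 and Grin2d 0.16 (Lhx6 high against low), Grin3b -0.36 (Pvalb high against low), Grin2c -0.25 and Grin2d 0.073 (Sst high against low), Grin2b -0.034 and Grin3a 0.030 (Adarb2 high against low). In hippocampus libraries alone, Grin1 -0.0052 and Grin2c -0.020 (lineage gates), Grin2a -0.071 and Grin2c 0.21 (Pvalb- against Sst-gated). In cortex libraries alone, Grin2a 0.0081, Grin2d 0.11, Grin3b 0.0090 (lineage gates), Grin1 0.076, Grin2b -0.028, Grin2d 0.025, Grin3b -0.52 (Pvalb- against Sst-gated). With no replicate block (library not in the fit), Grin1 0.031 (Pvalb- against Sst-gated), Grin2d 0.0067 (Lhx6 high against low). Without the deepest 5% of nuclei, Grin2a -0.015 (Pvalb- against Sst-gated), Grin2d 0.022 (Lhx6 high against low). Among nuclei with pan-GABA accessibility, Grin2a -0.050 (Pvalb- against Sst-gated), Grin2b -0.019 and Grin2d -0.0040 (Adarb2 high against low). With each library left out, log2 fold changes that changed sign ranged as follows. Brain region, all nuclei: Grin1 -0.71 to 0.36, Grin2a -0.32 to 0.19, Grin2b -0.37 to 0.74, Grin2c -1.01 to 1.01, Grin2d -0.0061 to 0.27, Grin3b -0.58 to 1.02. Brain region, Lhx6-gated: Grin1 -0.74 to 0.36, Grin2a -0.31 to 0.16, Grin2b -0.37 to 0.66, Grin2c -1.56 to 0.54, Grin2d -0.095 to 0.24, Grin3b -0.66 to 1.07. Brain region, Adarb2-gated: Grin1 -0.66 to 0.43, Grin2a -0.28 to 0.31, Grin2b -0.26 to 0.79, Grin2c -0.85 to 2.13, Grin3b -0.22 to 1.13. Lineage gates: Grin2a -0.048 to 0.0018, Grin2d -0.062 to 0.041. Pvalb- against Sst-gated: Grin1 -0.091 to 0.018, Grin2a -0.067 to 0.080, Grin2b -0.015 to 0.085, Grin2c -0.23 to 0.32, Grin2d -0.24 to 0.028, Grin3b -0.14 to 0.28. Lhx6 high against low: Grin2d -0.023 to 0.038, Grin3b -0.068 to 0.016. Pvalb high against low: Grin2d -0.0068 to 0.065. Sst high against low: Grin2c -0.075 to 0.15. Adarb2 high against low: Grin2d -0.023 to 0.057. Interaction: Grin2a -0.16 to 0.030.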
